A study of Caenorhabditis elegans with 357 samples.

Results

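Single Caenorhabditis elegans larvae collected within the first 200 min of the fourth larval stage (L4) were compared between the wild-type strain N2 and the serotonin synthesis mutant tph-1(mg280). The rule took every animal labelled with under 200 min in L4, which gave 96 of the 357 animals of the series, 49 N2 and 47 tph-1. The tph-1 animals are of strain MT15434, genotype tph-1(mg280) II, and the N2 animals are labelled WT. No other allele or agent is named in the labels. Animals of both strains were grown singly from bleached eggs in small arenas on agar with UV-killed OP50 bacteria, imaged, and then cut open and lysed for SMART-seq2 from polyA RNA, with 1 library per animal. The mutant is represented by 1 strain, so the allele and anything else that separates MT15434 from this N2 stock cannot be told apart. The labels do not say which part of tph-1 the allele removes. Nearest to the limit on the inside were a tph-1 animal at 188.0 min and N2 animals at 191.3 and 195.8 min, and on the outside N2 animals at 203.3 and 203.45 min and a tph-1 animal at 205.35 min.

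The gene tph-1 encodes tryptophan hydroxylase, which carries out the first and rate-limiting step of serotonin synthesis in a few neurons of the head and of the egg-laying circuit. In C. elegans serotonin links food to feeding, locomotion and egg laying, and mutants of tph-1 are known to store more fat than the wild type. L4 is the last larval stage, in which the epidermis prepares the adult cuticle, the vulva forms and the hermaphrodite germ line makes sperm.

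Sample titles carry a number behind the strain name, by which the early animals fall into N2 sets 1 to 5, with 14, 11, 4, 3 and 17 animals, and tph-1 sets 1 to 4, with 10, 2, 6 and 29. Its meaning is not given. Every set is of 1 strain, so the strains were compared over 5 sets against 4. Time in L4 spanned 10.7 to 195.8 min in N2, with a median of 103.5, and 9.59 to 188.0 min in tph-1, with a median of 115.5. An N2 library held 1512413 to 11544404 reads in genes, the median being 4108493, and a tph-1 library 452852 to 4984496, the median being 1505701. In RPM, the reads of a gene scaled to its library's total, 1 read came to 0.0866 to 0.661 for N2 libraries and to 0.201 to 2.21 for tph-1 libraries. Every tph-1 set was shallower on average than every N2 set (exact two-sided permutation test over all splits of the 9 sets, p = 0.0159, the smallest these splits can give). All 49 N2 animals and 23 of the 47 tph-1 animals were on the 6 recording cameras that occur in both strains.

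At equal minutes, 34 of 15054 tested genes were higher in tph-1, which is 0.226% of them, and 33 were lower, 0.219%. The test was limma on log2(RPM + 1) over the sets, with Benjamini-Hochberg adjusted p under 0.05, and each difference below is tph-1 minus N2 on that scale with its standard error. The higher genes were led by the desaturase fat-7, genes of the left end of chromosome III, the transporter gene pgp-6, the lectin gene clec-47 and cuticle collagens, and ran from 0.94 to 4.21. The lower genes ran from -0.68 to -2.04 and include the lipid-binding gene far-3, mitochondrially encoded subunits, and genes of lipid and sugar metabolism. The levels fitted per set did not overlap between the strains for 33 of the 34 higher genes, all but T01D3.6, nor for any of the 33 lower genes. Over all tested genes the set levels did not overlap for 4.05% with tph-1 higher and for 7.34% with tph-1 lower. The calls were made on these same set levels, so the separation of the called genes is no added support.

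These counts depended on single sets and on scaling. Without tph-1 set 3 the counts were 11 higher and 0 lower genes (limma), without N2 set 1 they were 17 and 2, without N2 set 2 13 and 1, without N2 set 5 19 and 8, and without tph-1 set 1 645 and 153. Without N2 set 4, 18 were higher, and without tph-1 set 2, 11 were lower. In the full comparison 14.96% of all genes had an unadjusted p under 0.05 with tph-1 higher and 11.7% with tph-1 lower. Counts of list members at that level, given below, are to be read beside these shares. Rescaling the libraries by TMM factors moved the median of all genes from 0.10 to -0.09, a shift of -0.18, and gave 959 higher genes (6.37%) and 1627 lower (10.8%). The higher genes were 50.7% of the calls before rescaling and 37.1% after it. Of the original calls, 32 on the higher side and 33 on the lower side were also called after rescaling. Values below are as deposited, so a difference of a single gene is to be read against that shift of the median.

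**Figure D1:**
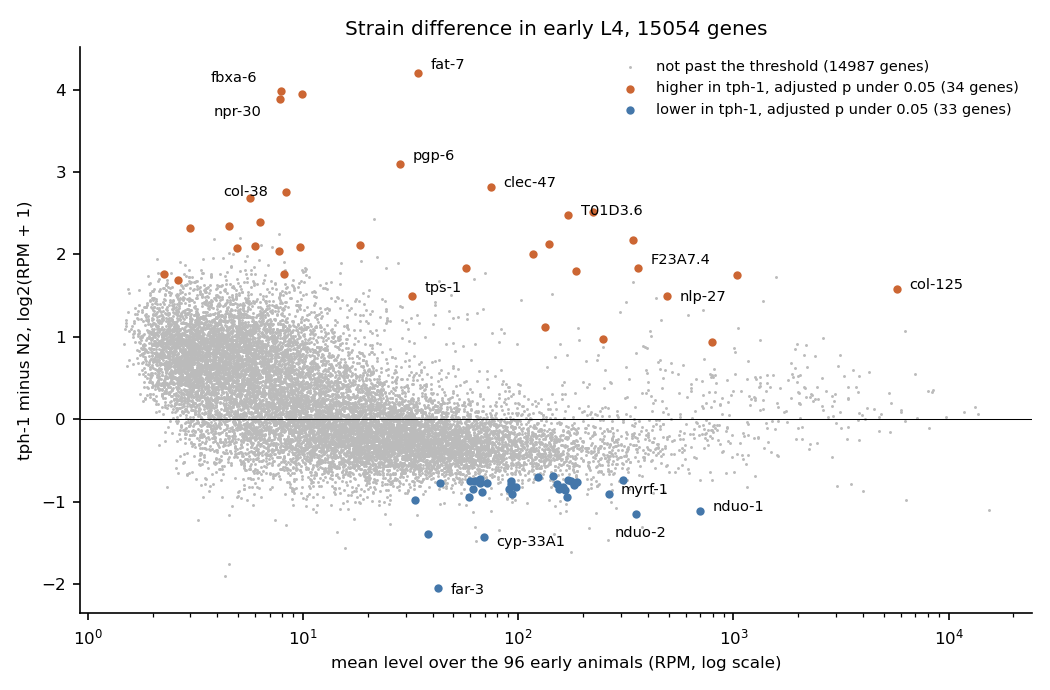
Mean level in RPM (log scale) against the tph-1 minus N2 difference in log2(RPM + 1) for the 15054 tested genes, with the 34 higher and 33 lower genes in colour and some of them named. The higher genes lie at all levels, from 2.27 to 5724 RPM, while the lower genes lie between 33.3 and 699 RPM, and the cloud of low genes lies above 0.

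The targeted transcript was measured first. The tph-1 gene read 0.228 RPM in the lowest, 3.74 in the median and 26.9 in the highest N2 animal, and 0, 3.39 and 19.3 RPM in the tph-1 animals. The strains overlapped almost throughout, and the fitted difference was -0.01 ± 0.41 (limma adjusted p = 0.984). With the number of genes detected per animal as a further covariate, an alternative chosen after the data were seen, it was -0.98 (adjusted p = 0.0122). As a total over the whole gene, this value is no check of the labels. In the serotonin list 0 of 17 tested members passed the test, with a median of 0.33 beside 0.10 over all genes. At an unadjusted p under 0.05 (limma) 4 were higher, 23.5% of the list beside 14.96% of all tested genes. These 4 were the TRPV channel gene ocr-2 (1.29 ± 0.39, adjusted p = 0.0835), the receptor gene ser-1 (1.203 ± 0.44), the homeobox gene lim-4 (0.97 ± 0.45) and the serotonin reuptake transporter gene mod-5 (0.82 ± 0.37). Median levels were 3.35 and 9.09 RPM for ocr-2 in N2 and tph-1, and 3.83 and 7.57 RPM for mod-5. In the list for dopamine, tyramine and octopamine, 0 of 16 passed and 2 were higher at that level, 12.5%, which is below the share of all tested genes. They were tbh-1, which encodes the enzyme that makes octopamine, at 1.14 ± 0.37 and the dopamine receptor gene dop-4 at 0.90 ± 0.40. With the detection covariate the medians of these lists were -0.01 and -0.18.

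The gene with the largest called difference was fat-7, a stearoyl-CoA desaturase that makes oleic acid from stearic acid. It read 0 RPM in the lowest, 1.35 in the median and 15.2 in the highest N2 animal, and 5.66, 30.1 and 285 RPM in tph-1. The strains overlapped only at their edges: 34 of the 47 tph-1 animals lay above the highest N2 animal and 47 of 47 above the N2 median. Set levels ran from 0.81 to 1.79 in N2 and from 4.37 to 7.34 in tph-1, with tph-1 set 1 highest. The difference was 4.21 ± 0.50, or 18.4-fold on this scale (limma adjusted p = 0.000898), and it was past the threshold without any 1 set in turn. Without tph-1 set 1 it was 3.56, the lowest of these, and without tph-1 set 4 it was 4.64. Of its alternatives, edgeR on reads summed per set gave 5.22 with an adjusted p of 0.0794. Every tph-1 animal but few N2 animals reached the filter of 5 RPM, so fat-7 passed it through its tph-1 levels. That fat-7 differs was favoured by that filter, and its calls without single sets share this limit.

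The neighbouring desaturases did not pass. The paralog fat-6 read 17.1, 356 and 743 RPM in N2 against 86.8, 408 and 1090 RPM in tph-1 (lowest, median and highest animal), with nearly full overlap and a difference of 0.60 ± 0.20 (limma adjusted p = 0.0983). It passed with the detection covariate (0.67), over animals without a set term (0.39) and with the set number as a block (0.70). The palmitoyl-CoA desaturase fat-5 had a median of 15.99 RPM in N2 and 11.08 RPM in tph-1, with a difference of 0.02 ± 0.38. Of the other members the elongase genes elo-6, with medians of 717 and 315 RPM, and elo-2, with 364 and 177 RPM, stood at -0.88 ± 0.20 and -0.85 ± 0.22, with limma adjusted p = 0.0568 and 0.0663. The desaturase gene fat-4 stood at -0.56 ± 0.17. In the list of desaturases and elongases 1 of 15 tested genes was called higher and 0 lower, while at an unadjusted p under 0.05 2 were higher and 5 lower, with a median of -0.31.

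Among genes of fat synthesis and of fat breakdown, those past an unadjusted p under 0.05 were mostly below N2. Of the synthesis list, 0 of 18 passed the adjusted test, and 0 were higher and 5 lower at an unadjusted p under 0.05, median -0.23. They include pod-2, the acetyl-CoA carboxylase (848 RPM in the median N2 animal and 524 in the median tph-1 animal; -0.73 ± 0.20), the glycerol phosphate acyltransferase gene acl-6 (-0.72 ± 0.18) and pcyt-1, of phosphatidylcholine synthesis (-0.70 ± 0.17). Of the breakdown and fasting list, 0 of 30 passed, 2 were higher and 9 lower at an unadjusted p under 0.05, median -0.33. The carnitine palmitoyltransferase genes cpt-1 (-0.73 ± 0.20) and cpt-2 (-0.53 ± 0.14), which carry fatty acids into mitochondria, lay below 0, and the lysosomal lipase gene lipl-1 lay above it (1.24 ± 0.40, limma adjusted p = 0.0928). On rescaling the medians were -0.41 for synthesis and -0.51 for breakdown, where that of all genes was -0.09. Such medians were not particular to these lists. All tested genes with a mean of 10 to 100 RPM had a median of -0.18, or -0.36 after rescaling. Those of 100 to 1000 RPM had -0.32, or -0.51 after rescaling.

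**Figure D2:**
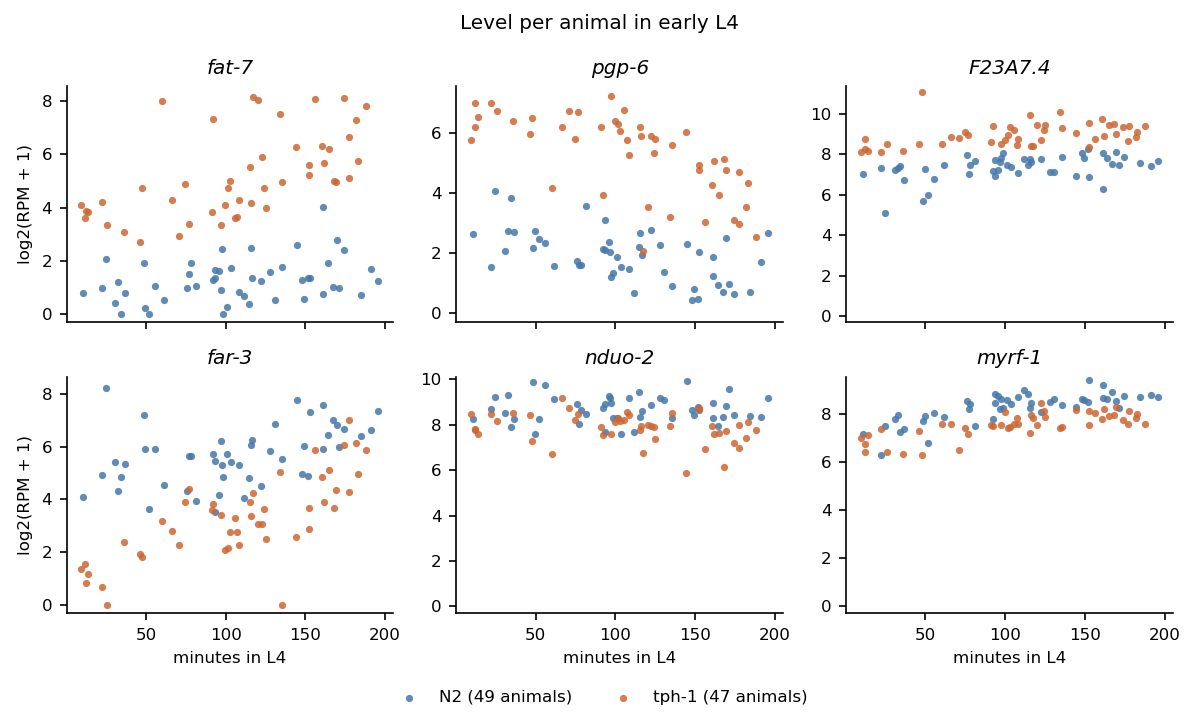
Level of 6 called genes in log2(RPM + 1) against the labelled minutes in L4, each point 1 of the 49 N2 or 47 tph-1 animals. For fat-7, pgp-6 and F23A7.4 most tph-1 animals lie above the N2 animals, while for far-3, nduo-2 and myrf-1 they lie lower, with overlap.

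Among the genes that passed were 4 neighbours at the left end of chromosome III in the WBcel235 annotation. They are fbxa-6, an F-box gene, npr-30, of the neuropeptide receptor family, and H10E21.5 and H10E21.4, which have no assigned role here. In 49 N2 animals with 210527914 reads together, fbxa-6 had 2 reads, npr-30 1 and H10E21.4 1, while H10E21.5 had 84 reads in 34 animals. In tph-1 the lowest, median and highest animals read 3.26, 16.4 and 34.9 RPM for fbxa-6, 0, 12.9 and 56.9 for npr-30, 0, 5.09 and 204 for H10E21.4, and 5.43, 17.7 and 68.5 for H10E21.5. The groups did not overlap for fbxa-6 and H10E21.5, and 46 of 47 tph-1 animals lay above every N2 animal for npr-30. The fitted differences, 3.99, 3.88, 2.69 and 3.95, depend on the pseudocount. All 4 passed the filter on low values through their tph-1 levels, so that they differ was fixed by that filter, and their number is no result.

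A pair of further genes there are listed for tph-1 but not in the deposited N2 table, and their N2 values were filled in as 0. Whether this stretch is present and unaltered in the genome of this N2 stock was not tested, so the values here do not separate a transcript raised in tph-1 from a sequence that N2 libraries could not yield. The nuclear hormone receptor gene nhr-80, known in C. elegans to promote desaturase expression, read 16.7, 38.1 and 82.3 RPM in the lowest, median and highest tph-1 animal and was seen in 47 of 47. If the N2 group held no read of it, its mean of 42.5 RPM would be at least 2982-fold higher than the limit of 3 reads over that group. H10E21.1 had a mean of 6.56 RPM in tph-1, which on the same condition would be at least 460.0-fold above that limit. Neither gene was tested, since the N2 table does not list them. The next gene inward, clp-10, a calpain gene, had reads in both strains, with medians of 1.23 and 1.29 RPM, and was too low to be tested. The early strain difference of fat-7 thus lies beside an nhr-80 transcript that is listed for tph-1 and not for N2. The part of nhr-80 in that difference was not tested.

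**Figure D3:**
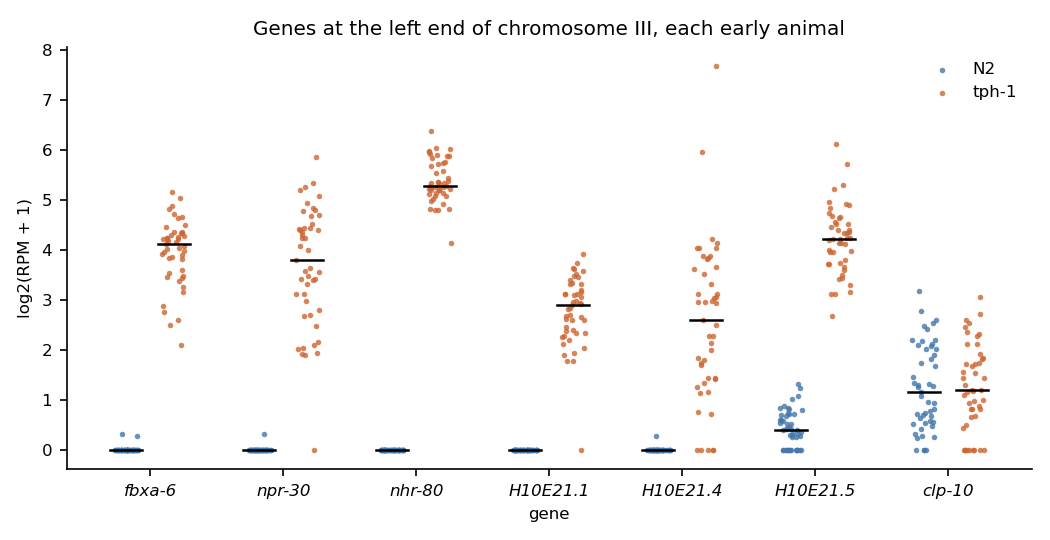
Level in log2(RPM + 1) of 7 neighbouring genes in each early animal, with the median of each strain as a bar. For the first 6 genes the N2 animals lie at or near 0 and nearly all tph-1 animals above them, while clp-10 is alike in both strains. The N2 values of nhr-80 and H10E21.1, not listed for N2, were filled in as 0.

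Other higher genes encode a transporter, a lectin, a sugar synthase and proteins of no assigned role. The P-glycoprotein transporter gene pgp-6 read 0.361, 2.86 and 16.1 RPM in the lowest, median and highest N2 animal and 3.26, 54.03 and 150.3 RPM in tph-1. Of the tph-1 animals 37 of 47 exceeded every N2 animal, and the difference was 3.09 ± 0.43 (limma adjusted p = 0.0047). It was called in 30 of 30 alternatives. Its fitted slope was negative in both strains, -0.83 per 100 min in N2 and -1.08 in tph-1, and the test of slopes did not separate them (limma adjusted p = 0.902). The C-type lectin gene clec-47, of a family of sugar-binding proteins that includes immune effectors, had medians of 18.2 and 77.5 RPM, with highest animals at 94.4 and 435 RPM. Its set levels were 3.88 to 4.93 in N2 and 5.72 to 8.70 in tph-1, with tph-1 sets 1 and 2 highest, and the difference was 2.82 ± 0.48. Without N2 set 2 it was 2.72 and its adjusted p 0.0742.

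The gene tps-1 encodes trehalose-6-phosphate synthase, which makes the storage and stress sugar trehalose. It read 5.56, 16.3 and 48.2 RPM in N2 against 26.999, 45.8 and 83.2 RPM in tph-1, with 21 tph-1 animals above every N2 animal. The difference of 1.50 ± 0.20 (limma adjusted p = 0.00405) was called in 30 of 30 alternatives. F23A7.4 had the clearest separation at high level: 33.9, 176.3 and 306 RPM in N2 against 274, 488 and 2173 RPM in tph-1, with 43 of 47 tph-1 animals above every N2 animal and a difference of 1.84 ± 0.17. Its neighbour by name, F23A7.8, stood at 1.12 ± 0.23. T01D3.6 had medians of 30.1 and 256 RPM and a difference of 2.48 ± 0.51, with overlapping set levels since tph-1 set 2 lay at 5.62 and N2 set 3 at 5.94. K03B8.8 had medians of 5.40 and 28.7 RPM and a difference of 2.12 ± 0.31 (limma adjusted p = 0.0074), past the threshold without any 1 set in turn except tph-1 set 3. No role was assigned to F23A7.4, F23A7.8, T01D3.6 or K03B8.8.

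Cuticle collagens, the structural proteins of the worm's exoskeleton, were the largest group among the higher genes. Of the tested collagens 15 were higher, 9.93% beside 0.226% of all tested genes, and 0 were lower. At an unadjusted p under 0.05, 101 were higher, 66.9% beside 14.96% of all tested genes, and 0 were lower. The median of the tested collagens was 1.06, beside 0.10 over all genes and 0.62 over tested genes under 10 RPM. After rescaling 71 collagens were higher and 0 lower, median 0.83, and with the detection covariate their median was 0.59. Tested genes under 10 RPM had medians of 0.40 after rescaling and -0.09 with that covariate. The highly abundant col-125 read 578, 3078 and 10427 RPM in N2 against 529, 7870 and 23714 RPM in tph-1, with 12 of 47 tph-1 animals above every N2 animal and a difference of 1.58 ± 0.32 (limma adjusted p = 0.0427), called in 17 of 30 alternatives. With steep negative slopes in both strains, col-157 had medians of 47.8 and 117 RPM (1.80 ± 0.27) and col-162 of 1.60 and 14.7 RPM (2.52 ± 0.39). Their fitted slopes were -2.55 and -2.56 per 100 min for col-157 and -4.47 and -4.68 for col-162 in N2 and tph-1. The body shape collagen gene dpy-4 had medians of 8.56 and 33.3 RPM and a difference of 1.83 ± 0.33. Its means were 59.3 RPM in N2 and 54.5 RPM in tph-1, with highest animals at 2003 and 407 RPM. Its call was lost without N2 set 2, N2 set 5 or tph-1 set 3, and its lowest alternative was 0.36.

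Other called collagens were barely on in this window. For col-38 the N2 animals read 0, 0.811 and 38.7 RPM and the tph-1 animals 0.319, 10.3 and 59.6 RPM, a difference of 2.76 ± 0.38 (limma adjusted p = 0.0047). For col-175 the medians were 0.248 and 3.09 RPM and for col-120 0.383 and 3.005 RPM. The highest N2 animals read 2.30 and 2.99 RPM, so both genes passed the filter of 5 RPM through their tph-1 levels. That they differ was favoured by that filter, and both are counted among the 15. In animals at 400 min or later the mean of col-38 was 7384 RPM in N2 and 10218 in tph-1, that of col-175 was 3755 and 4620 and that of col-120 was 2901 and 4338. Of the 15 called collagens 14 had a mean of 500 RPM or more after 400 min, and 6 had a mean under 20 RPM in the early animals. The same counts were not taken over all tested collagens, so neither is shown to be particular to the called ones. The minutes were those of the labels, and a difference in developmental rate at equal minutes was not tested. For col-77 and col-14, with 2.12 and 2.00 in the main comparison, edgeR gave a negative difference, so their direction is uncertain.

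Epidermal peptides also passed. The antimicrobial peptide genes nlp-27 and nlp-33, of the neuropeptide-like family and known from epidermal defence, were both higher. For nlp-27 the animals read 0.793, 243 and 1006 RPM in N2 against 131, 641 and 1621 RPM in tph-1, with overlapping animals but separate set levels (7.24 to 8.20 and 8.78 to 9.58). Its difference of 1.49 ± 0.23 (limma adjusted p = 0.00865) held without any 1 set in turn. For nlp-33 the medians were 318 and 735 RPM (0.94 ± 0.19, adjusted p = 0.0427). The related nlp-31 (0.78 ± 0.17, adjusted p = 0.0563) and the caenacin cnc-8 (0.87 ± 0.18, adjusted p = 0.0504) fell just short. Over the epidermal and intestinal defence list 2 of 66 were higher and 0 lower, median 0.16. Of the neuropeptides and insulin-like peptides 2 passed, which are nlp-27 and nlp-33 again, with a median of -0.04.

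The gene farthest below N2 was far-3, which encodes a secreted fatty acid and retinol binding protein. It read 10.4, 49.1 and 300.4 RPM in the lowest, median and highest N2 animal and 0, 8.71 and 127.04 RPM in tph-1, where 26 of 47 animals lay below every N2 animal. Its fitted slopes were positive in both strains, at 1.202 and 1.71 per 100 min. The difference was -2.04 ± 0.36 (limma adjusted p = 0.031). It missed the threshold without N2 set 2 (-1.79), N2 set 4 (-2.01), tph-1 set 3 (-1.96) or tph-1 set 4 (-1.69). Such dependence was general: 10 of the 34 higher genes but 0 of the 33 lower genes were called without every 1 of the 9 sets in turn. The 10 include fat-7, fbxa-6, npr-30 and H10E21.5, which passed the filter on low values through their tph-1 levels. For col-38, another of the 10 with an N2 median of 0.811 RPM, this was not examined.

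Several of the lower genes encode enzymes or transporters; they were picked out after their values were seen, and the metabolic lists hold few lower calls. The cytochrome P450 gene cyp-33A1 had medians of 86.2 RPM in N2 and 41.5 in tph-1 (-1.43 ± 0.28), and the myo-inositol transporter gene hmit-1.2, known from the response to osmotic stress, 43.3 and 17.1 RPM (-1.39 ± 0.25). Of lipid genes, dhs-3, which encodes a lipid droplet dehydrogenase, had medians of 78.05 and 39.8 RPM (-0.95 ± 0.18), and the perilipin gene plin-1, which coats lipid droplets, 154.8 and 99.8 RPM (-0.70 ± 0.14). Pantothenate kinase, encoded by pnk-1 and needed for coenzyme A, stood at -0.98 ± 0.20, and the mevalonate kinase gene mvk-1 at -0.76 ± 0.14. Of sugar metabolism, the triosephosphate isomerase gene tpi-1 had medians of 107 and 65.8 RPM (-0.84 ± 0.17), the pyruvate kinase gene pyk-1 362 and 238 RPM (-0.74 ± 0.15), and the glucose-6-phosphate dehydrogenase gene gspd-1 117 and 66.7 RPM (-0.75 ± 0.14). For plin-1, pyk-1, gspd-1, tpi-1 and mvk-1 the animals overlapped and the set levels did not.

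Mitochondrially encoded transcripts were lower as a group. Their share of reads was 4.18% ± 1.33 (SD, n = 49) among N2 animals and 2.50% ± 0.70 (SD, n = 47) among tph-1 animals. Adjusted to equal minutes, the mean over sets was 4.59% in N2 and 2.41% in tph-1, with sets from 3.78% to 7.15% and from 1.86% to 2.71% (exact two-sided permutation test over sets, p = 0.0159, the smallest possible). N2 set 3, at 7.15%, lay apart from the other N2 sets, at 3.78% to 4.12%. Of the 12 genes, 2 passed, both of NADH dehydrogenase: nduo-2, with 192.5, 404 and 966 RPM in N2 against 57.2, 245 and 584 in tph-1 (-1.15 ± 0.21), and nduo-1 (-1.12 ± 0.22). A further 8 were lower at an unadjusted p under 0.05 and the list's median was -0.80, or -0.99 after rescaling. The nuclear genes of the respiratory chain had 0 of 41 called, 1 higher and 14 lower at an unadjusted p under 0.05, and a median of -0.18. Their summed level was 20283 RPM in the median N2 animal and 20291 RPM in the median tph-1 animal. All tested genes with a mean of 10 to 100 RPM also had a median of -0.18, and those of 100 to 1000 RPM had -0.32. Members of the nuclear list below N2 include cyc-1 (-0.58 ± 0.14), ucr-2.1 (-0.52 ± 0.14) and nuo-4 (-0.56 ± 0.16). The mitochondrial fusion gene eat-3, a dynamin-related gene, was called at -0.85 ± 0.18.

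**Figure D4:**
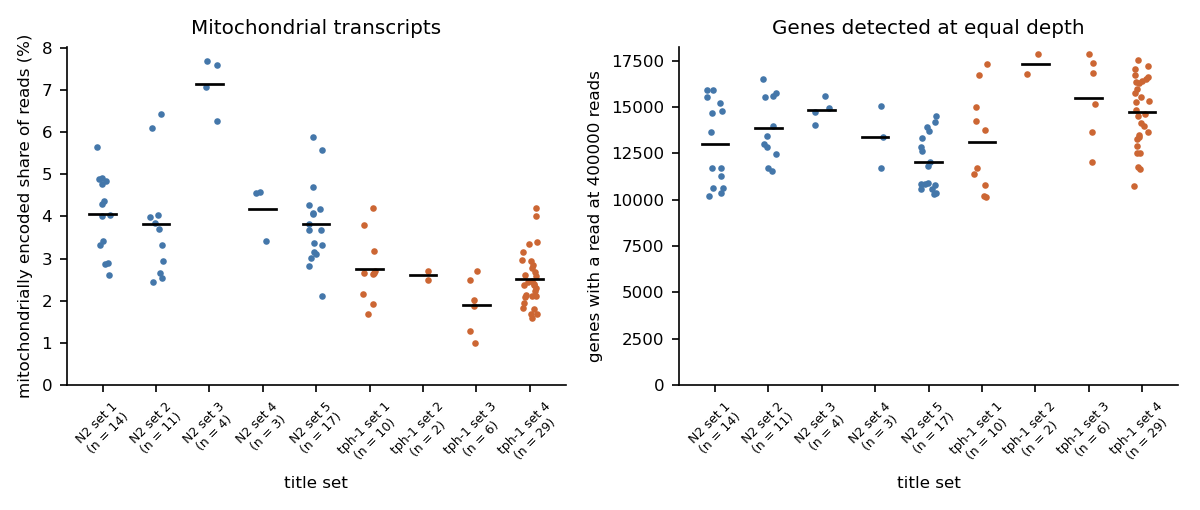
Share of reads from mitochondrially encoded genes in percent (left) and genes with a read after thinning each library to 400000 reads (right) per animal, by title set, with unadjusted set means as bars. Every tph-1 set mean lies below every N2 set mean on the left, while on the right the sets of both strains overlap.

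Regulators among the lower genes included myrf-1, a membrane-bound transcription factor needed for molting and for the larval switch in synaptic wiring. It read 76.1, 344 and 663 RPM in N2 against 75.6, 188 and 347 RPM in tph-1, with a difference of -0.91 ± 0.16 (limma adjusted p = 0.0273). Its call was lost without N2 set 2 or tph-1 set 3. Its paralog myrf-2 stood at -0.55 ± 0.15 (adjusted p = 0.0708). In the list of heterochronic genes and molting factors 1 of 24 passed, myrf-1, and 7 were lower and 1 higher at an unadjusted p under 0.05. The hypoxia factor gene hif-1 had medians of 209 and 127.2 RPM (-0.94 ± 0.18). The G protein gene goa-1, whose product restrains egg laying and locomotion, had medians of 116 and 69.6 RPM, with 36 of 47 tph-1 animals below every N2 animal (-0.90 ± 0.17). The stress protection gene lea-1 had the most separate animals of the lower genes, 41 of 47 below every N2 animal, with medians of 187.1 and 107.02 RPM (-0.85 ± 0.14, adjusted p = 0.0164). Structural genes called lower were dlg-1 of epithelial junctions (-0.75 ± 0.15), the lamin gene lmn-1 (-0.75 ± 0.14) and arx-2 of the actin nucleating complex (-0.75 ± 0.16).

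Stress and detoxification lists held few calls. Of 68 cytochrome P450 genes 0 were higher and 1 was lower, cyp-33A1. Of 63 UDP-glucuronosyltransferases 0 passed the adjusted test, with 2 higher and 16 lower at an unadjusted p under 0.05 (median -0.26), among them ugt-1 at -1.02 ± 0.25. Of 39 glutathione S-transferases 0 passed and 7 were lower at that level, with gst-4, a common oxidative stress reporter, at medians of 113.3 and 52.99 RPM (-0.89 ± 0.20, limma adjusted p = 0.0563). Of 20 heat shock genes 0 passed, and the mitochondrial chaperone gene hsp-6 had medians of 344 and 188 RPM (-0.78 ± 0.18, adjusted p = 0.0625). Of the 20 insulin pathway genes and DAF-16 targets 1 was lower, lea-1. In the list of dod genes, known in C. elegans as genes held down by DAF-16, 0 of 12 passed and members lay both ways. There dod-24 (1.07 ± 0.32) and dod-17 (0.76 ± 0.21) were above N2, and C32H11.9 (-1.91 ± 0.41) and dod-21 (-1.75 ± 0.44) below it, the last pair with medians of 3.83 and 4.18 RPM in N2 against 0 and 0.346 RPM in tph-1.

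Marker lists show what each whole animal held, where fewer cells of a type and less RNA per cell cannot be told apart. The intestine list had 0 of 30 called and a median of -0.31, with its summed level at 37812 RPM in the median N2 animal and 31436 in the median tph-1 animal. For body-wall muscle 0 of 30 were called, 0 were higher and 11 lower at an unadjusted p under 0.05, and the median was -0.24, while the summed level was 23720 RPM in the median N2 animal and 26501 in the median tph-1 animal. For the pharynx (0 of 19 called, median -0.33) and the pan-neuronal list (0 of 21 called, median -0.22) 3 and 7 members were lower at that level, and the summed levels of the median N2 and tph-1 animals were 5753 and 6380 RPM for the pharynx and 1692 and 1522 RPM for the neurons. Germline genes had 0 of 41 called and 0 at an unadjusted p under 0.05 in either direction. The oocyte list had 0 of 24 called. Seam and hypodermis markers had 0 higher and 1 lower of 18, dlg-1. None of the members of these lists lacked reads in either strain.

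Genes of sperm and yolk, which are known to come on later, were low and mostly above N2 in tph-1. The major sperm proteins, whose copies are nearly identical and cannot be trusted singly, had 11 of 31 members tested. Of these 0 passed and 10 were higher at an unadjusted p under 0.05, 90.9% beside 14.96% of all tested genes. Their median was 1.56, where that of all tested genes under 10 RPM was 0.62. Their summed level had a median of 8.84 RPM in N2 and 39.2 RPM in tph-1, and 15 of the 31 had a median of 0 in N2 and 6 in tph-1. With N2 levels this low, the filter of 5 RPM favoured members high in tph-1, so the count of 10 is to be read with that limit. Other sperm genes had 0 of 41 called, with 12 higher (29.3%) and 1 lower at an unadjusted p under 0.05. Among the vitellogenins, the yolk proteins, 0 of 5 passed, with vit-6 at medians of 6.12 and 18.7 RPM (1.21 ± 0.36) and vit-2 at 5.69 and 12.8 RPM (1.07 ± 0.31).

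Genes at low levels lay mostly above N2 in the deposited values. Of the genes with a mean under 10 RPM the median difference was 0.62, with 15 called higher and 0 lower, while it was -0.18 from 10 to 100 RPM, -0.32 from 100 to 1000 RPM and 0.19 above. A gene could pass the filter of 5 RPM through tph-1 animals alone. No N2 animal exceeded 3.01 RPM for the called col-175, col-120 and dao-4, or 1.51 RPM for the 4 left-end genes of chromosome III. The filter thus had a part in the count of 15. Medians of gene lists are to be read beside those of genes at like levels. Under 10 RPM the median was 0.40 after rescaling and turned to -0.09 with the detection covariate. The chemoreceptor genes, of which each is made in few neurons, had 0 of 752 called, with a median of 0.91. At an unadjusted p under 0.05, 354 were higher, 47.1% beside 14.96% of all tested genes, and 2 lower. The summed chemoreceptor level had a median of 1393 RPM in N2 and 3038 RPM in tph-1. Over sets the log2 of that sum was 9.90 to 11.98 in N2 and 10.87 to 13.61 in tph-1, which overlap, and its difference of 1.23 did not pass (exact two-sided permutation p = 0.127). After thinning every library to 400000 reads, the lowest, median and highest animal had 10197, 13017 and 16522 genes with a read in N2 against 10143, 14847 and 17860 in tph-1. The mean over sets was 13469 and 15309 (exact two-sided permutation p = 0.111), so this difference did not pass, and N2 set 5 at 12130 and tph-1 set 2 at 17605 were the extremes.

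The number of genes detected varied widely among animals of 1 strain. Adding it per animal as a covariate, which was chosen after the data were seen, gave 445 higher genes (2.96%) and 2397 lower (15.9%), and all 34 higher and 33 lower genes were called again. With it the median over all genes was -0.25, that of the chemoreceptors 0.04, that of the C-type lectins 0.10 and that of the major sperm proteins 1.21. Of the 169 tested lectins 1 was called, clec-47. Without the 3 sets of under 5 early animals the counts were 392 higher and 436 lower genes. Cytosolic ribosomal proteins had 0 of 79 called and a median of 0.35, with 27 higher at an unadjusted p under 0.05, and 0 called and a median of 0.15 after rescaling.

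**Figure D5:**
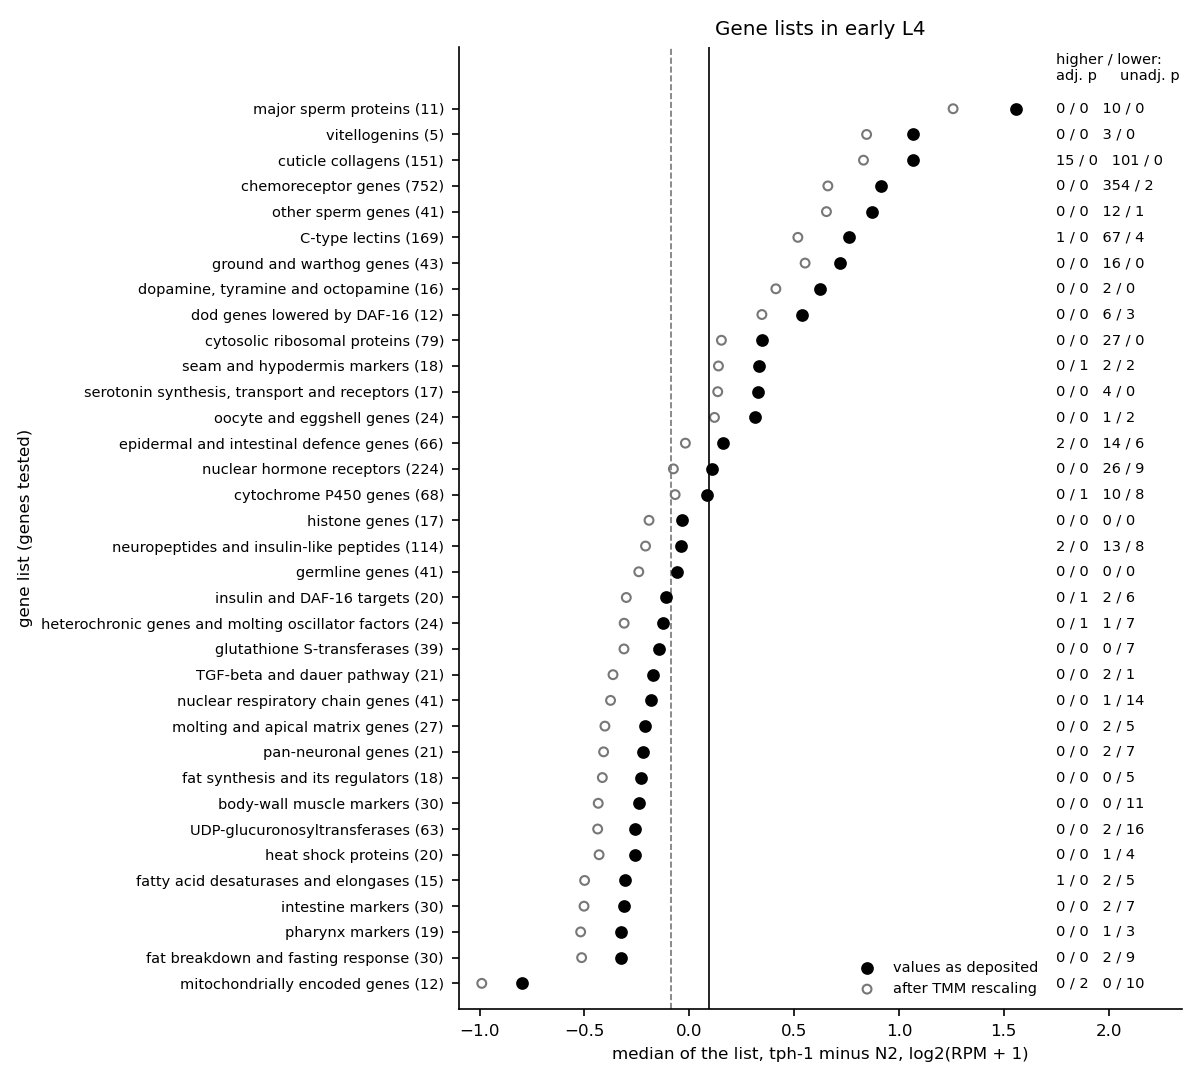
Median tph-1 minus N2 difference in log2(RPM + 1) for each gene list, from the deposited values (filled) and after TMM rescaling (open), with the medians of all genes as a solid and a dashed line. The numbers at the right count genes higher and lower at an adjusted and at an unadjusted p under 0.05, with 15 called collagens and 2 called mitochondrial genes the largest counts in each direction.

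Whether the strains ran apart inside the window was tested by the slope over minutes. The slope differed for 10 of 15054 genes, with 3 higher in tph-1 (0.0199%) and 7 lower (0.0465%), and for 5.29% of genes at an unadjusted p under 0.05 (limma over animals with an intercept per set). The gene hpd-1, which encodes hydroxyphenylpyruvate dioxygenase of tyrosine breakdown, had slopes of 0.11 per 100 min in N2 and 1.21 in tph-1 (difference 1.103 ± 0.24, adjusted p = 0.0327). Y39B6A.1 had slopes of 1.31 and 2.87, and ZK632.4 of -0.40 and 0.48. Slopes were lower in tph-1 for hpo-15 (0.17 and -1.30), Y48E1B.8 (0.93 and -0.56), M01G12.9 (-0.74 and -1.82) and the putative transcription factor gene nfx-1 (-0.14 and -0.99). This test takes animals as replicates, and how slopes vary between sets was not part of it. Within the sets of at least 5 animals, 3 of each strain, the fitted slopes did not overlap between the strains for 5 of the 10 genes, and for 5.38% of all tested genes. For hpd-1 they did overlap, at -0.40 to 0.57 in N2 sets and 0.30 to 1.37 in tph-1 sets. None of these 10 genes was among the 67 strain calls. The count was 2 after rescaling, and 0 when either N2 set 5 or tph-1 set 4, which hold the most animals, was left out.

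The 9 sets also held later animals, from 2 in N2 set 2 to 44 in tph-1 set 1, so the early strain difference was set against the later one. The difference between the windows passed for 0 genes in either direction (0% of 15054, limma over sets), with 5.11% at an unadjusted p under 0.05, so no call was shown to belong to early L4. Of the 34 higher genes 33 kept the sign later, the exception being col-169 at 0.97 and -0.01, and of the 33 lower genes 33 did. These genes were chosen by their early difference, which by itself favours a smaller later one. The later difference was the smaller one for 31 and 30 of them, with medians of 2.10 early and 1.33 later for the higher genes and of -0.82 and -0.69 for the lower genes. Early and later differences were 4.21 and 4.15 for fat-7, 2.82 and 2.75 for clec-47, 3.09 and 1.45 for pgp-6, 2.12 and 0.43 for K03B8.8, and 0.60 and 1.37 for fat-6. The smallest unadjusted p belonged to tatn-1, a tyrosine aminotransferase gene (0.38 early and -0.68 later, p = 0.000112 by limma, adjusted p = 0.666).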

How the data were processed

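Measured were transcript levels in single animals. The authors deposited 1 table per strain of RPM, gene reads scaled to the library's total, a unit taken from the deposited tables' names. Per the submitters' processing notes STAR 2.7.9a, an aligner, was among the tools. For build, annotation, counting and use of strand nothing was given in the sources used here, so overlapping, antisense and near-identical genes are uncertain and no coordinates are printed. Whole reads were recovered from the RPM steps (100% of values whole within 0.1 reads), and depth gives counting error only, since reads carry no molecular identifiers. Tested were genes of both tables (19364) that reached 5 RPM in 10% or more of the early animals. Log2(RPM + 1) was fitted with a natural spline of minutes (2 degrees of freedom) and an intercept per set, and limma 3.58.1 with trend (R 4.3.3) compared the 9 intercepts. Fold changes on this scale understate low genes. Slopes were tested over animals with set intercepts, and early against later on the difference of set intercepts, later animals with a spline of 4 degrees of freedom. Adjustment was Benjamini-Hochberg over all tested genes, at 0.05. On recovered reads edgeR 4.0.16 called 8 higher and 1 lower gene over set sums, and 5195 and 4501 over animals without a set term. Single values were tested by exact permutation over sets. The strain comparison was also run on simulated data with the same set scatter for all genes and no shift of low genes between the strains. That run does not cover those features of these sets. The labels name each library as 1 animal, but animals of a set share whatever it stands for, so p-values of the strain comparison measure the spread between sets, while those of slopes measure the spread between animals within sets.

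The named genes are the 15 largest called differences in each direction, up to 4 members of each list with the smallest p, the 5 smallest p per direction of the other tests, tph-1, fat-5 to fat-7 and the left end of chromosome III; other called genes were added after their values were seen. The members, gene lists, tests and most alternatives were chosen with earlier results of these data known. Gene names are those of the files, of which 18691 of 19397 matched the Ensembl WBcel235 annotation. Depth ran from 452852 to 11544404 reads per animal.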

Additional observations from a re-analysis of the deposited data

Results flagged for a closer look

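A set that lay far from the other sets of its strain was sought in 124 groups of 4 or 5 sets, and 5 were found, where chance gives about 1 in 20. N2 set 3 stood at 7.15% for the mitochondrially encoded share of reads, against 3.78% to 4.12% in the other N2 sets. On the log2(RPM + 1) scale, N2 set 3 also stood at 1.417 for Y82E9BR.7 (others 0.40 to 0.66) and at 8.214 for F53F10.2 (others 7.57 to 7.72). For nex-1, N2 set 4 stood at 7.999 (others 7.53 to 7.65), and for col-175, tph-1 set 4 stood at 1.551 (others 3.13 to 3.30).

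The slope over early minutes differed between the strains for 10 genes (limma over animals as replicates, adjusted p under 0.05). Given as tph-1 minus N2 in log2 units per 100 min, it was 1.557 for Y39B6A.1, 1.103 for hpd-1 and 0.8806 for ZK632.4. It was -1.488 for Y48E1B.8, -1.461 for hpo-15, -1.078 for M01G12.9 and -0.9048 for T13C5.6. The remaining values were -0.8495 for nfx-1, -0.6708 for riok-3 and -0.5182 for F30F8.9. The test passed 0 genes when N2 set 5 was left out, and 0 when tph-1 set 4 was.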

How the results depend on the processing

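The 2 counts of strain calls moved by over 1.5 times under most alternatives, and the cause was not tested. Leaving out 1 set gave 11 to 645 higher and 0 to 153 lower genes, and 0 to 22 genes of differing slope. Higher and lower genes numbered 959 and 1627 after TMM rescaling, 1181 and 1291 with sets weighted by animals, 392 and 436 with sets of at least 5 animals and 19 and 14 without adjustment for minutes. They numbered 8 and 1 by edgeR on set sums, 5195 and 4501 by edgeR over animals, 4701 and 4545 by limma over animals without a set term, and 718 and 1889 with set as a random block. A filter at a mean of 10 RPM gave 22 and 77, no filter 18 lower genes and a window of 60 to 190 min 84 lower genes. Added after the data were seen, the detection covariate gave 445 and 2397, and sets of at least 5 animals with rescaling 1860 and 3109. Slope calls numbered 16 with a pseudocount of 5 and 2 after rescaling. The test of early against later gave 0 genes in each of its alternatives, and the 5 values per set, the mitochondrial share among them, kept their side of the threshold. Called in each alternative that could test them were 5 genes, npr-30, H10E21.5, pgp-6, tps-1 and fbxa-6. Of these, npr-30, H10E21.5 and fbxa-6 passed the filter on low values through their tph-1 levels, so their repeated calls are no support. By edgeR on set sums and over animals, col-77 was at -0.51 and -0.10 and col-14 at -0.25 and -0.18.

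With sets 1 to 4 of each strain, the set number as a replicate block gave 424 higher and 266 lower genes, against 19 and 8 without the block. Deviations of same-numbered sets correlated at 0.39, -0.27, -0.07 and 0.02, so the number was not taken to pair them. Depth limits genes near 1 read, 0.201 to 2.21 RPM in tph-1.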
